A study of Mus musculus with 24 samples.

Results

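The genes described are H2-K1, H2-D1, B2m, Tap1, Tap2, Tapbp, Psmb8, Psmb9, Psmb10 and Nlrc5, which build or regulate the MHC class I pathway of antigen presentation. They were picked by name for that role and make up 10 of the 55421 mouse genes in the deposited count table. MHC class I molecules display peptides from the inside of a cell to cytotoxic T cells. The proteasome makes these peptides, the TAP transporter carries them into the endoplasmic reticulum, and tapasin helps load them onto a heavy chain paired with β2-microglobulin. Interferons are known inducers of the pathway, and the immunoproteasome forms where inducible catalytic subunits take the place of constitutive ones. Type 2 alveolar epithelial cells (AEC2s), the surfactant-producing progenitors of the alveolus, are also known for carrying MHC class II molecules.

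AEC2s came from mouse lungs of 2 genotypes, Krt8+/+ (wild type) and Krt8–/– (lacking keratin 8 in the whole animal). RNA was sequenced from fresh cells (day 0) and after 1, 3 and 7 days of culture, which gave 24 libraries, 3 for every pairing of genotype with day (8 groups). The 3 isolations were done on separate dates, and each date supplied all 8 groups, so the isolation numbers pair the libraries. Total counts per library ranged from 10184439 to 19483386. Because the knockout is global, AEC2s of Krt8–/– mice had also developed without keratin 8. No label states the mouse strain or age. Comparisons between days ask how the class I genes behave as AEC2s change state in culture, and comparisons between genotypes ask whether keratin 8 alters that course.

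Values are counts per 1000000 scaled by edgeR's TMM factors (CPM). Krt8 averaged 523, 3210, 3270 and 4030 CPM on days 0, 1, 3 and 7 in Krt8+/+ cells (n = 3 each). In Krt8–/– cells it averaged 29.6, 38.2, 30.3 and 30.2 CPM. The ranges did not overlap on any day: the lowest Krt8+/+ library held 485 CPM and the highest Krt8–/– library 47.4 CPM, which fits the genotype labels. The summed CPM of 9 AEC2 markers, led by the surfactant gene Sftpc, was 231000, 295000 and 305000 in the Krt8+/+ libraries of day 0 and 256000, 261000 and 309000 in those of Krt8–/– cells. The AEC2 label thus matched its markers on day 0, and by day 7 the same sum averaged 239 and 202 CPM.

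Both day 1 libraries of isolation 2 stood apart. Their 10 most abundant genes held 8.0% (Krt8+/+) and 7.1% (Krt8–/–) of the counts, where those of the other day 1 libraries held 12.7% to 14.1%. Several class I genes were also lowest there among the day 1 libraries: H2-D1 measured 1053 CPM in Krt8+/+ cells against 1500 and 1525, and 1070 CPM in Krt8–/– cells against 1532 and 1421. The sum of the AEC2 markers was 15200 CPM (Krt8+/+) and 14400 CPM (Krt8–/–) there, where isolations 1 and 3 held 89100 and 69500 CPM and 84600 and 64100 CPM on day 1. Class II genes summed to 601 CPM against 2700 and 2590 CPM in Krt8+/+ cells and to 731 CPM against 3070 and 2810 CPM in Krt8–/– cells. The part of these differences in the class I values was not tested. The counts of class I genes called on day 1 are given with and without these libraries. The isolations differed in sex-linked genes too. In isolation 1, the Krt8+/+ libraries held 62.4 to 79.5 CPM of Xist and at most 0.441 CPM over 4 Y-linked genes. The Krt8–/– libraries of that isolation held 5.92 to 12 CPM of Xist and 173 to 191 CPM of the Y-linked genes. Isolation 2 held Xist in both genotypes and isolation 3 the Y-linked genes in both, so the genotypes differed in this pattern in isolation 1 alone.

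Per kilobase of exon, H2-D1 had the highest mean level of the 10 genes in fresh Krt8+/+ AEC2s, 917 CPM per kilobase (n = 3). B2m followed with 399 CPM per kilobase, H2-K1 with 194 and Tapbp with 79.8. Psmb8 at 17, Tap2 at 16.9 and Psmb10 at 15.6 CPM per kilobase lay within each other's spread over isolations, as did Psmb9 at 5.82 and Tap1 at 4.44. Nlrc5 was lowest of the 10 at 0.166 CPM per kilobase. On day 7 B2m stood at 396 and H2-D1 at 353 CPM per kilobase, with overlapping libraries, and H2-K1 at 78.8. Krt8–/– cells had 979 CPM per kilobase for H2-D1 and 426 for B2m on day 0, and 345 and 377 on day 7. Lengths are of all annotated exons joined, retained introns included. Not divided by length, H2-D1 averaged 911 CPM and B2m 340 CPM on day 7 in Krt8+/+ cells.

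Over 7 days of culture, most of the 10 class I genes fell in both genotypes. The inducible proteasome subunit Psmb9 dropped to 0.0782 of its day 0 level in Krt8+/+ cells and to 0.0463 in Krt8–/– cells. The heavy chains H2-K1 and H2-D1, Psmb8, Psmb10 and Tap2 fell as well, while B2m and Tapbp did not pass the test. A gene is called here when its p from edgeR's quasi-likelihood test, adjusted over all 18046 genes tested, is under 0.05. By that rule 7 of the 10 genes were lower on day 7 than on day 0 in Krt8+/+ cells, where 30.2% of all tested genes were called lower and 28.6% higher. In Krt8–/– cells 8 of 10 were lower, where 29.9% of all tested genes were lower and 28.6% higher. The median log2 change of the 10 genes was −1.27 in Krt8+/+ and −1.42 in Krt8–/– cells, and that of all genes tested was 0 and 0.002. Days 0 and 7 did not overlap for 8 and 9 of the 10, beside 65.6% and 65% of all tested genes. In 3 of 3 isolations 8 and 9 went 1 way, beside 74.1% and 74.2%. Non-overlap covered 55.5% and 56.1% of all tested genes for day 1 against day 0. It covered 36.2% and 39.8% for day 3 against day 1, and 28.5% and 31.9% for day 7 against day 3. Whether fewer cells of a type or less RNA per cell underlies a lower count cannot be told apart in bulk RNA.

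**Figure D1:**
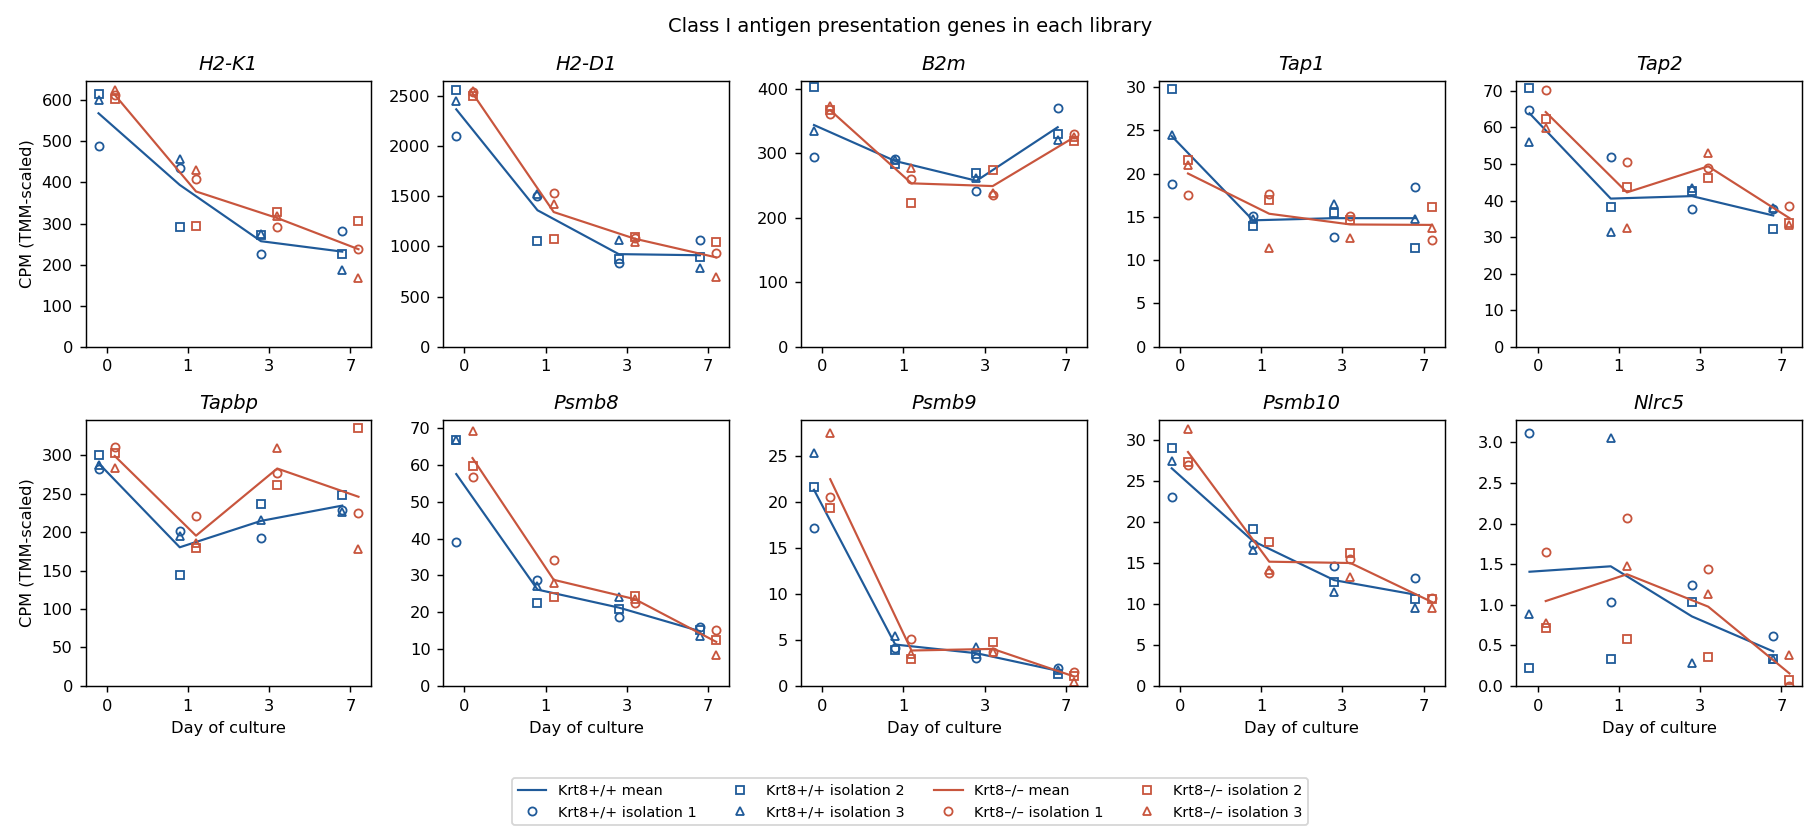
CPM of each of the 10 genes in every library by day of culture (colour, genotype; symbol, isolation; lines, group means). Psmb9 averaged 21.3 CPM on day 0 and 1.65 CPM on day 7 in Krt8+/+ cells, while B2m averaged 344 and 340 CPM.

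H2-K1 (ENSMUSG00000061232, chr17:33996017-34000347 of GRCm38, minus strand) encodes a classical class I heavy chain. It measured 488, 616 and 602 CPM in isolations 1, 2 and 3 of Krt8+/+ cells on day 0, and 281, 226 and 187 CPM on day 7. The Krt8–/– libraries measured 613, 603 and 624 CPM on day 0, and 238, 307 and 167 CPM on day 7. Every day 7 library lay below every day 0 library, and the Krt8–/– libraries were tightly grouped on day 0 and widely spread on day 7. Its log2 change was −1.30 (SE 0.21, edgeR adjusted p = 1.96e-05) in Krt8+/+ and −1.37 (SE 0.21, adjusted p = 1.03e-05) in Krt8–/– cells.

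H2-D1 (ENSMUSG00000073411, chr17:35262730-35267499, plus strand) encodes the other classical heavy chain measured. It held 2096, 2553 and 2443 CPM in Krt8+/+ cells on day 0 and 1059, 893 and 781 CPM on day 7. The Krt8–/– libraries held 2537, 2494 and 2544 CPM on day 0 and 934, 1039 and 696 CPM on day 7. The days did not overlap in either genotype, and isolation 3 was lowest on day 7 in both. Its log2 change was −1.38 (SE 0.18, edgeR adjusted p = 1.39e-06) and −1.51 (SE 0.18, adjusted p = 4.44e-07) in the same order of genotypes. Part of the reads of these heavy chains cannot be assigned with certainty: 6.87% of the 50-base windows of H2-K1 transcripts and 13.9% of those of H2-D1 also occur in transcripts of other genes, and 5.43% of H2-K1 windows occur in H2-D1.

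B2m (ENSMUSG00000060802, chr2:122147686-122153083, plus strand) encodes β2-microglobulin, the light chain shared by class I molecules. Krt8+/+ libraries held 294, 403 and 334 CPM on day 0 and 371, 330 and 320 CPM on day 7, and the days overlapped. Krt8–/– libraries held 360, 367 and 372 CPM on day 0 and 330, 319 and 325 CPM on day 7, a small drop with no overlap. The log2 change was −0.01 (95% interval −0.26 to 0.23) in Krt8+/+ and −0.18 (−0.42 to 0.07) in Krt8–/– cells, with edgeR adjusted p of 0.926 and 0.196. B2m lies within Patl2 on the opposite strand, and Patl2 held 22 counts over all libraries against 99309 for B2m.

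Tap1 (ENSMUSG00000037321, chr17:34187553-34197225, plus strand) and Tap2 (ENSMUSG00000024339, chr17:34203527-34216321, plus strand) encode the paired chains of the peptide transporter. Tap2 measured 64.8, 70.7 and 56.1 CPM on day 0 and 37.8, 32.1 and 37.9 CPM on day 7 in Krt8+/+ cells. Krt8–/– cells had 70.3, 62.4 and 60 CPM on day 0 and 38.6, 33.8 and 33.2 CPM on day 7, and the days were apart in both genotypes. Its log2 change was −0.83 (SE 0.17, edgeR adjusted p = 0.00027) and −0.87 (SE 0.17, adjusted p = 0.000174). Tap1 averaged 24.3 ± 5.52 CPM on day 0 and 14.9 ± 3.58 CPM on day 7 in Krt8+/+ cells, and 20 ± 2.21 and 14.1 ± 1.9 CPM in Krt8–/– cells (SD, n = 3). Its log2 change was −0.71 (adjusted p = 0.00578) and −0.51 (adjusted p = 0.0395), and neither call held under every alternative. In Krt8+/+ cells Tap1 gave −1.05 (adjusted p = 0.00264) without isolation 1, −0.32 (adjusted p = 0.345) without isolation 2 and −0.69 (adjusted p = 0.0535) without isolation 3. In Krt8–/– cells it gave −0.51, −0.50 and −0.46 without isolation 1, 2 and 3 (adjusted p = 0.0895, 0.139 and 0.193), and −0.49 with no filter on low counts (adjusted p = 0.118).

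Tapbp (ENSMUSG00000024308, chr17:33915899-33929292, plus strand) encodes tapasin, which holds the empty class I molecule at the transporter. It measured 282, 300 and 287 CPM on day 0 and 229, 248 and 227 CPM on day 7 in Krt8+/+ cells, with no overlap. Krt8–/– libraries held 311, 303 and 283 CPM on day 0 and 224, 336 and 178 CPM on day 7, so isolation 2 rose above the day 0 libraries and the days overlapped. The log2 change was −0.31 (95% interval −0.67 to 0.06, edgeR adjusted p = 0.131) and −0.28 (−0.64 to 0.08, adjusted p = 0.164). Without isolation 2 the Krt8–/– value was −0.50 and was called (adjusted p = 0.0122), and in a fit of the libraries compared alone the Krt8+/+ value was −0.32 and was called (adjusted p = 0.0249). Tapbp shares 3422 bases on the same strand with Zbtb22, which held 6744 counts against 79653.

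Psmb8 (ENSMUSG00000024338, chr17:34197721-34201454, plus strand) encodes an inducible catalytic subunit of the proteasome, the counterpart of constitutive Psmb5. Krt8+/+ libraries held 39, 66.7 and 66.8 CPM on day 0 and 15.9, 15.1 and 13.6 CPM on day 7. Krt8–/– libraries held 56.8, 59.6 and 69.1 CPM on day 0 and 15, 12.4 and 8.42 CPM on day 7. The days were far apart in both genotypes. The log2 change was −1.95 (SE 0.21, edgeR adjusted p = 1.41e-07) in Krt8+/+ and −2.37 (SE 0.22, adjusted p = 1.17e-08) in Krt8–/– cells.

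Psmb9 (ENSMUSG00000096727, chr17:34181987-34187764, minus strand) is the inducible counterpart of Psmb6. It measured 17.1, 21.6 and 25.2 CPM in fresh Krt8+/+ cells and 1.97, 1.24 and 1.72 CPM on day 7. In Krt8–/– cells it measured 20.5, 19.3 and 27.5 CPM on day 0 and 1.54, 1.09 and 0.447 CPM on day 7. All day 7 libraries were far below all day 0 libraries, and isolation 3 of the Krt8–/– cells was lowest. The log2 change was −3.68 (SE 0.34, edgeR adjusted p = 1.44e-08) and −4.43 (SE 0.35, adjusted p = 2.04e-09), lower in 3 of 3 isolations of each genotype. Psmb9 overlaps Tap1 by 212 bases on the opposite strand, and whether counting used strand is not stated.

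Psmb10 (ENSMUSG00000031897, chr8:105935735-105938444, minus strand), the inducible counterpart of Psmb7, fell by less. It measured 23.1, 29 and 27.5 CPM on day 0 and 13.2, 10.6 and 9.54 CPM on day 7 in Krt8+/+ cells. Krt8–/– cells had 26.9, 27.3 and 31.3 CPM, then 10.7, 10.6 and 9.44 CPM. No day 7 library reached a day 0 library. The log2 change was −1.25 (SE 0.16, edgeR adjusted p = 1.12e-06) and −1.48 (SE 0.16, adjusted p = 1.27e-07).

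Nlrc5 (ENSMUSG00000074151, chr8:94434356-94527272, plus strand), the transactivator of class I genes, was close to the detection limit, with 321 counts over the 24 libraries. In Krt8+/+ libraries it measured 3.12, 0.217 and 0.886 CPM on day 0 and 0.613, 0.332 and 0.331 CPM on day 7. In Krt8–/– libraries it measured 1.66, 0.709 and 0.773 CPM on day 0 and 0, 0.0779 and 0.383 CPM on day 7. The Krt8+/+ days overlapped, and the Krt8–/– days did not. The summed counts per group went from 59 to 18 and from 40 to 7. Its log2 change was −1.75 (SE 0.94, edgeR adjusted p = 0.118) in Krt8+/+ and −2.71 (SE 1.05, adjusted p = 0.0326) in Krt8–/– cells, and the difference between these changes was −0.97 (95% interval −3.90 to 1.97). The Krt8–/– call was lost without isolation 1 (−1.61, adjusted p = 0.292) and without isolation 2 (−2.59, adjusted p = 0.0867), and without isolation 3 the value was −4.82. In a fit of the libraries compared alone Nlrc5 did not pass the low-count filter in Krt8–/– cells and was not tested. The Krt8+/+ value without isolation 1 was −0.71.

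**Figure D2:**
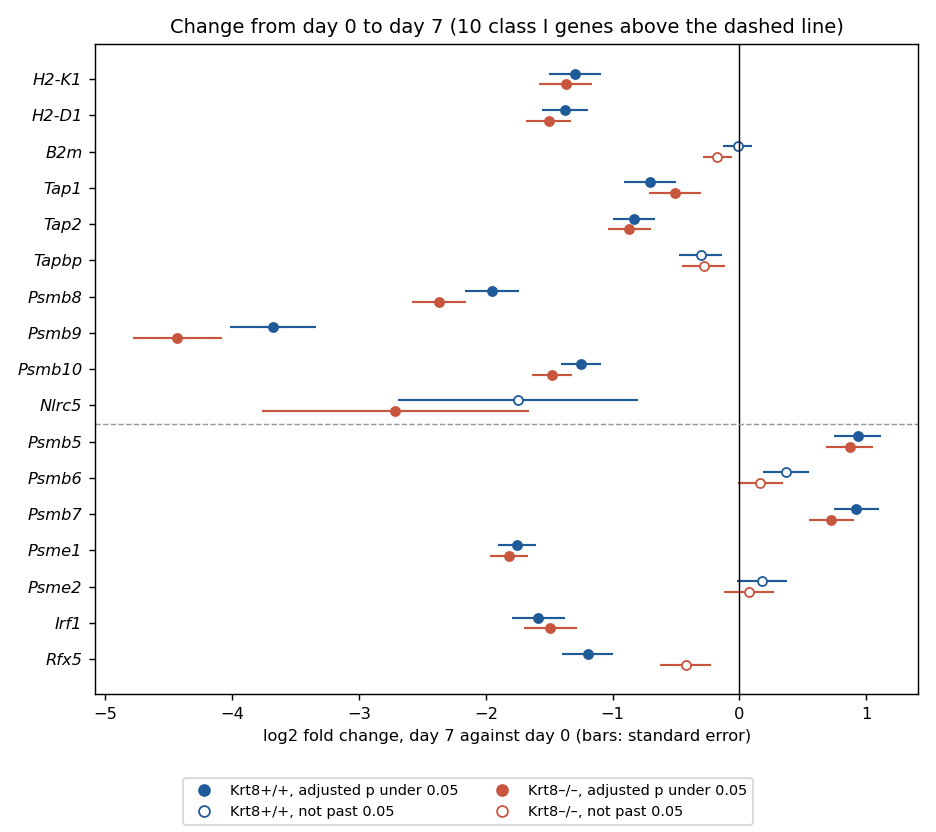
Log2 change from day 0 to day 7 with its standard error for the 10 class I genes (above the dashed line) and 7 partner genes, by genotype; filled points have an edgeR adjusted p under 0.05. Psmb9 lies at −3.68 and −4.43, and Psmb5 on the opposite side at 0.93 and 0.87.

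Psmb9 and Psmb8 were already lower after 1 day of culture. Psmb9 stood at 4.11, 3.93 and 5.43 CPM in Krt8+/+ cells and at 5.11, 2.92 and 3.50 CPM in Krt8–/– cells on day 1, all far below day 0. Its log2 change from day 0 was −2.24 (SE 0.31, edgeR adjusted p = 5.76e-06) and −2.55 (SE 0.32, adjusted p = 1.53e-06). Psmb8 fell by 1.13 and 1.10 on the log2 scale. In Krt8+/+ cells 8 of the 10 genes were called lower on day 1, the exceptions being B2m and Nlrc5, where 28.5% of all tested genes were lower and 26.2% higher. In Krt8–/– cells 8 of 10 were called lower, the exceptions being Tap1 and Nlrc5, against 26.9% lower and 23.7% higher among all tested genes. The medians of the 10 genes were −0.67 and −0.66, beside 0 and −0.01 over all genes tested. Comparisons of day 1 and of day 7 share the day 0 libraries.

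Several day 1 calls depended on isolation 2, whose day 1 libraries stood apart. Without isolation 2, 3 genes were called lower in Krt8+/+ cells (Tapbp, Psmb8 and Psmb9), where 3520 of 18523 tested genes were lower. In that fit 39.2% of all tested genes were called in either direction, against 54.7% with all libraries. H2-K1 then gave −0.21 (edgeR adjusted p = 0.471, from −0.53 and 0.0345), H2-D1 −0.51 (0.0604, from −0.80 and 0.000751) and Tap1 −0.45 (0.191, from −0.73 and 0.0052). Tap2 gave −0.46 (0.133, from −0.66 and 0.00267) and Psmb10 −0.50 (0.105, from −0.59 and 0.00367). Psmb10 also missed the threshold without isolation 3 (0.0541). With only the day 1 libraries of isolation 2 left out, 7 genes remained called and H2-K1 gave −0.26 (0.291). Of 18590 genes tested in that fit, 4296 were lower. H2-K1 also missed without isolation 1 (0.0558), without isolation 3 (0.0563) and by DESeq2 (0.0514). A fit of the libraries compared alone, isolation 2 included, called 5 genes in Krt8+/+ cells and lost H2-K1, Tap1 and Psmb10. Of 15743 genes tested in that fit, 3817 were lower. In Krt8–/– cells 6 genes were called without isolation 2, with H2-K1 at −0.47 (0.114, from −0.70 and 0.00777) and Tap2 at −0.56 (0.0772, from −0.61 and 0.00533). Of 18523 genes tested there, 3225 were lower, and 36.3% were called in either direction against 50.6% with all libraries. Without only the day 1 libraries of isolation 2, H2-K1 gave −0.45 (0.0779) in Krt8–/– cells. Then 7 genes were called, where 3964 of 18590 tested genes were lower.

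B2m and Tap1 were each called on day 1 in a single genotype. B2m measured 291, 283 and 290 CPM in Krt8+/+ and 260, 223 and 277 CPM in Krt8–/– cells on day 1. Its log2 change from day 0 was −0.26 (edgeR adjusted p = 0.0652) and −0.53 (adjusted p = 0.000635), and the changes differed by −0.28 (95% interval −0.62 to 0.06). Tap1 measured 15.1, 14 and 14.7 CPM in Krt8+/+ and 17.7, 17 and 11.4 CPM in Krt8–/– cells, where day 1 overlapped day 0. Its changes of −0.73 and −0.38 differed by 0.35 (95% interval −0.26 to 0.97). Neither difference was called.

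Between days 1 and 3 the heavy chains went on falling in Krt8+/+ cells. H2-K1 went from 435, 291 and 457 CPM to 225, 271 and 275 CPM, with no overlap, and H2-D1 from 1500, 1053 and 1525 CPM to 832, 873 and 1061 CPM, where the days overlapped. The changes were −0.62 (edgeR adjusted p = 0.0314) and −0.56 (adjusted p = 0.0234), and Psmb10 fell by 0.45 (adjusted p = 0.0382). These 3 of the 10 genes were called lower, where 11.9% of all tested genes were lower and 14.4% higher. The median was −0.32 beside −0.05 over all genes tested. Not one of the 3 was called without isolation 1 (H2-K1 −0.45, H2-D1 −0.41, Psmb10 −0.57) or without isolation 3 (−0.55, −0.58 and −0.42), and Psmb10 was not called without isolation 2 (−0.38, adjusted p = 0.318). In Krt8–/– cells H2-K1 changed by −0.27, H2-D1 by −0.32 and Psmb10 by −0.02, and these were not called (edgeR adjusted p = 0.36, 0.198 and 0.956). The genotypes' changes from day 1 to day 3 were not tested against each other.

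In Krt8–/– cells, Tapbp rose between days 1 and 3 from 221, 179 and 186 CPM to 277, 262 and 309 CPM. All its day 3 libraries were above its day 1 libraries. The log2 change was 0.53 (SE 0.17, edgeR adjusted p = 0.0286). It was the 1 gene of the 10 called, where 13.4% of all tested genes were higher and 10.2% lower, a share near that background. The median of the 10 genes was −0.07 beside −0.03 over all genes tested. Tapbp was not called without isolation 1 (0.64, adjusted p = 0.109), without isolation 3 (0.43, adjusted p = 0.218) or without the day 1 libraries of isolation 2 (0.46, adjusted p = 0.0682). Without those day 1 libraries H2-D1 was called lower. In Krt8+/+ cells Tapbp changed by 0.25 between days 1 and 3 and was not called (edgeR adjusted p = 0.292).

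From day 3 to day 7 B2m rose and Psmb9 fell further in both genotypes. B2m went from 241, 269 and 262 CPM to 371, 330 and 320 CPM in Krt8+/+ cells and from 236, 274 and 238 CPM to 330, 319 and 325 CPM in Krt8–/– cells, with no overlap in either. Its log2 change was 0.40 (SE 0.11, edgeR adjusted p = 0.0366) and 0.38 (SE 0.11, adjusted p = 0.0356). Psmb9 fell by 1.10 (adjusted p = 0.0476) and by 1.95 (adjusted p = 0.000592) on the log2 scale. In Krt8–/– cells Psmb8 changed by −0.98 (adjusted p = 0.0039) and Psmb10 by −0.55 (adjusted p = 0.0291). The Krt8+/+ values of Psmb8, −0.52, and Psmb10, −0.21, were not called, and the genotypes' changes from day 3 to day 7 were not tested against each other.

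The counts for days 3 to 7 in Krt8+/+ cells were 1 gene higher and 1 lower, where 3.11% of all tested genes were higher and 3.47% lower. In Krt8–/– cells they were 1 higher and 3 lower, where 4.4% of all tested genes were higher and 6.15% lower. With isolation as a block, and by DESeq2's test, 4 were lower there, Tap2 being added (−0.49, edgeR adjusted p = 0.0708 without the block). Of all genes tested, 1299 of 18046 and 1457 of 16985 were then lower, in the same order. The medians of the 10 genes were −0.17 and −0.44, beside −0.01 and 0 over all genes tested. In Krt8+/+ cells neither B2m nor Psmb9 was called once any isolation was left out: B2m then gave 0.29, 0.44 and 0.46 without isolation 1, 2 and 3, and Psmb9 −1.35, −0.98 and −0.99. Among Krt8–/– cells the call of Psmb9 held without each isolation, that of Psmb8 was lost without isolation 2 (−0.97, edgeR adjusted p = 0.095) and without isolation 3 (−0.77, adjusted p = 0.115), and those of B2m and Psmb10 were lost without each. B2m there gave 0.33, 0.47 and 0.35, and Psmb10 −0.56, −0.52 and −0.57.

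The inducible proteasome subunits lost ground to their constitutive counterparts. Per kilobase of exon, Psmb9 was 7.25%, 6.58% and 8.34% of Psmb6 in isolations 1, 2 and 3 of fresh Krt8+/+ cells, and 0.475%, 0.343% and 0.51% on day 7. The Krt8–/– ratios went from 6.98%, 6.13% and 8.5% to 0.406%, 0.322% and 0.136%. Every day 7 ratio was below every day 0 ratio. The log2 ratio changed by −4.08 and −4.77, each with an exact two-sided permutation p of 0.1, the smallest that 3 libraries against 3 can give.

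Psmb8 was 18.4%, 21.1% and 25.7% of Psmb5 on day 0 and 2.92%, 2.98% and 3% on day 7 in Krt8+/+ cells. In Krt8–/– cells it went from 24.2%, 20.9% and 22% to 2.92%, 2.33% and 1.76%. The day 7 values of Krt8+/+ cells were nearly identical. Psmb10 was 68.5%, 58.8% and 62.9% of Psmb7 on day 0 and 15.2%, 12.8% and 13.7% on day 7, and in Krt8–/– cells 63.6%, 62.6% and 68.8%, then 13.6%, 14.3% and 14.6%. Per kilobase of exon, Psmb10 and Psmb7 stayed closest of the subunit pairs at both ends, but this order depended on the lengths used. In CPM not divided by length, Psmb8 was 80.9% and 11.2% of Psmb5 on days 0 and 7 in Krt8+/+ cells. Psmb10 was then 31.5% and 6.9% of Psmb7. In Krt8–/– cells these values were 83.9% and 8.61% for Psmb8, and 32.4% and 7.06% for Psmb10. The log2 ratios changed by −2.86 and −3.29 for Psmb8 and by −2.19 and −2.20 for Psmb10, again with no overlap and an exact p of 0.1.

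**Figure D3:**
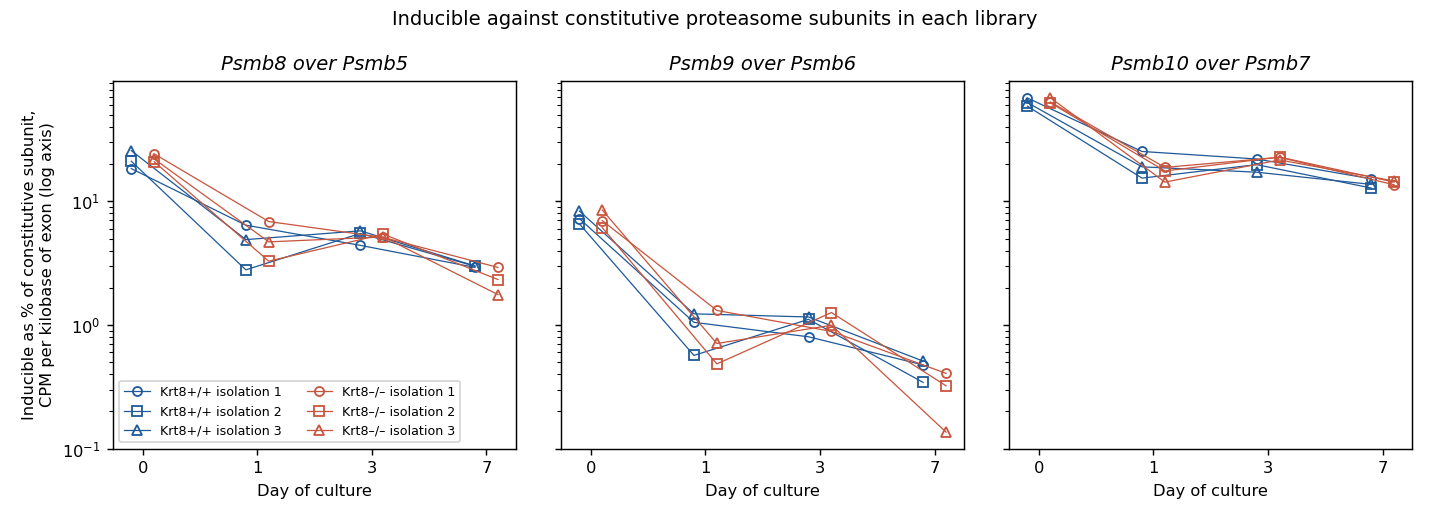
Each inducible subunit as a percentage of its constitutive counterpart, CPM per kilobase of exon on a log axis, in every library by day and genotype. The geometric mean of Psmb9 over Psmb6 in Krt8+/+ cells was 7.35%, 0.9%, 1.01% and 0.436% on days 0, 1, 3 and 7.

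On day 1 these ratios were lowest in isolation 2 for Psmb8 (2.79% against 6.41% and 4.9% in Krt8+/+ and 3.28% against 6.86% and 4.7% in Krt8–/– cells). The same held for Psmb9 (0.567% against 1.05% and 1.23%, and 0.484% against 1.31% and 0.708%). Geometric means for Psmb8 were 21.5%, 4.44%, 5.19% and 2.97% of Psmb5 on days 0, 1, 3 and 7 in Krt8+/+ cells. From day 1 to day 3 all ratios overlapped except that of Psmb10 in Krt8–/– cells, which was higher on day 3 by 0.42 on the log2 scale. Between genotypes every ratio overlapped on every day, and the widest gap, Psmb9 over Psmb6 on day 7, was −0.74 (exact two-sided permutation p = 0.2, libraries not paired). That ratio was lower in Krt8–/– cells in each of the 3 isolations.

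Loss of keratin 8 left the 10 genes without a called difference on any day. Their medians between Krt8–/– and Krt8+/+ cells were 0.09, −0.04, 0.20 and −0.07 on days 0, 1, 3 and 7, beside −0.004, −0.012, 0.003 and 0.004 over all genes tested. edgeR called 0 of the 10 genes on each day, where the called share of all tested genes was 0.0277% in fresh cells and then 0.0166%, 0.0166% and 0.0166% in culture, Krt8 among them each time. At an unadjusted p under 0.05 the counts were 0, 0, 1 and 0, and DESeq2 called 0 on each day with the same counts at an unadjusted p under 0.05. Of all 18046 genes tested by edgeR, 479, 638, 452 and 255 passed that unadjusted level on days 0, 1, 3 and 7. With the day 1 libraries of isolation 2 left out, edgeR called 0 of the 10 on day 1 (0.0215% of all tested genes). It gave 0 at an unadjusted p under 0.05, and DESeq2 was not run on that subset. The 1 gene was Tapbp on day 3, at 277, 262 and 309 CPM in Krt8–/– against 192, 236 and 215 CPM in Krt8+/+ cells, which do not overlap. Its difference was 0.40 (95% interval 0.04 to 0.76, unadjusted p = 0.0301, adjusted p = 1). H2-K1 and Tap2 also did not overlap on day 3 and were higher in Krt8–/– cells, by 0.29 (−0.15 to 0.72) and 0.26 (−0.10 to 0.62). B2m on day 1 was lower in every Krt8–/– library than in any Krt8+/+ library, a difference of −0.19 (−0.43 to 0.06). Genotypes did not overlap for 11% of all tested genes on day 3 and for 5.79% on day 1.

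A p that misses the threshold does not show that the genotypes were alike, and the intervals show what sizes remain possible. On day 7 the difference of H2-K1 was 0.04 (95% interval −0.40 to 0.47), of H2-D1 −0.03 (−0.41 to 0.34) and of B2m −0.07 (−0.31 to 0.17). Psmb8 differed by −0.31 (−0.76 to 0.13) and Psmb9 by −0.68 (−1.42 to 0.07), with the Krt8–/– mean below the Krt8+/+ mean for both and libraries that overlapped. Paired by isolation, Psmb8, Psmb9 and Psmb10 were lower in Krt8–/– cells in 3 of 3 isolations on day 7. On other days some went the other way: Psmb8 was higher in 3 of 3 on day 1, and Psmb10 lower in 3 of 3 on day 1 and higher in 3 of 3 on day 3. In all, 1, 3, 4 and 3 of the 10 genes went 1 way in 3 of 3 isolations on days 0, 1, 3 and 7, beside 24%, 29.4%, 29.2% and 24.1% of all tested genes. The sums of leukocyte and macrophage markers, given below by library, were also lower in Krt8–/– cells in 3 of 3 isolations on day 7 (median differences −1.17 and −1.27), and their part was not tested. With isolation as a block edgeR called 0 of the 10 genes on each day, with 0, 0, 1 and 0 at an unadjusted p under 0.05, and DESeq2, run without a block, called 0. Of all tested genes, the block fit called 0.0277% on day 0 and 0.0166% on each of days 1, 3 and 7. The change since day 0 was also compared between genotypes. Here edgeR called 0 of the 10 genes at days 1, 3 and 7, where the called share of all tested genes (Krt8 alone) was 0.00554%, 0.00554% and 0.00554%. At an unadjusted p under 0.05 the counts were 0 on each day by edgeR and by DESeq2, and DESeq2 called 0. Of all genes tested, 486, 405 and 369 passed that unadjusted level by edgeR. For Psmb9 the changes to day 7 differed by −0.76 (−1.72 to 0.21). The medians of these differences were −0.04, 0.15 and −0.15, beside −0.005, 0.013 and 0.006 over all genes tested. Without isolation 1, in which sex-linked genes differed, edgeR called 0 of the 10 genes between genotypes on each day, beside 0.0167% of all tested genes. At an unadjusted p under 0.05 the counts were 0, 0, 0 and 2 on days 0, 1, 3 and 7. All tested genes were not counted at that level in this fit, and DESeq2 was not run on that subset.

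Of 7 peptide loading and trimming partners, 4 were higher and 2 lower on day 7 in each genotype, with medians of 0.55 and 0.53. The background was 28.6% higher in both genotypes, and 30.2% lower in Krt8+/+ and 29.9% in Krt8–/– cells, so the 2 lower are near it. Calreticulin (Calr), a chaperone of the loading complex, went from 576, 547 and 536 CPM to 1136, 1027 and 1097 CPM in Krt8+/+ cells, a log2 change of 0.97 (edgeR adjusted p = 4.57e-07), and by 0.83 in Krt8–/– cells. Pdia3, the disulfide isomerase of the same complex, rose by 0.68 and 0.60, and Tpp2, a cytosolic peptidase, by 1.03 and 0.99. Tapbpl, which encodes the tapasin-related editor TAPBPR, fell by 0.89 and 0.62 on the log2 scale. Its Krt8–/– call was lost without isolation 1 (−0.60, adjusted p = 0.0705) and without isolation 3 (−0.46, adjusted p = 0.0751).

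Most subunits of the constitutive 20S core were higher on day 7. Of its 14 subunits, 12 were called higher in Krt8+/+ and 9 in Krt8–/– cells, where 28.6% of all tested genes were in each genotype, with medians of 0.91 and 0.73. Psmb5 changed by 0.93 and 0.87 and Psmb7 by 0.92 and 0.73, and both were called. Psmb6 measured 0.37 and 0.17 and was not (edgeR adjusted p = 0.0893 and 0.449). Psma5 rose by 1.15 and 1.02, Psma3 by 1.03 and 0.92, Psma7 by 0.94 and 0.80 and Psmb2 by 0.94 and 0.82.

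The proteasome activators split. PA28α, encoded by Psme1, fell from 175, 216 and 209 CPM to 72.1, 59.6 and 46 CPM in Krt8+/+ cells, a log2 change of −1.76 (SE 0.15, edgeR adjusted p = 4.03e-09), and by 1.82 in Krt8–/– cells. No day 7 library came near the day 0 libraries. Its partner PA28β, Psme2, measured 0.18 and 0.08 and was not called (adjusted p = 0.449 and 0.759). In the list of 5 activator and maturation genes, 3 were higher and 1 lower in each genotype (all tested genes, 28.6% higher in both, 30.2% and 29.9% lower), with medians of 0.47 and 0.52. Psme3 rose by 0.74 and 0.80, the maturation factor Pomp by 0.70 and 0.54, and Psme4 by 0.47 and 0.52. Psme4 in Krt8+/+ cells was not called without isolation 2 (0.39, adjusted p = 0.116), nor Pomp in Krt8–/– cells without isolation 1 (0.45, adjusted p = 0.0574).

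Among 14 tested of 15 other class I and class I-like genes, 2 were higher and 7 lower on day 7 in Krt8+/+ cells, and 3 and 8 in Krt8–/– cells (medians −1.67 and −1.27). All tested genes gave 28.6% higher in both, and 30.2% and 29.9% lower. H2-Q6 went from 5.98, 8.34 and 8.75 CPM to 0, 0.746 and 0.199 CPM in Krt8+/+ cells, a log2 change of −4.65 that became −6.01 without isolation 2, and changed by −4.57 in Krt8–/– cells. H2-T23, which encodes the nonclassical molecule Qa-1, went from 11.1, 14.2 and 15 CPM to 1.97, 0.912 and 1.46 CPM, a change of −3.19, with −2.85 in Krt8–/– cells. H2-Q10 changed by −3.09 and −4.29 (−5.11 without isolation 1 in Krt8–/– cells) and H2-Q7 by −2.75 and −3.46. H2-Q6, H2-Q7 and H2-T23 were among the genes that share 50-base windows with H2-K1 and H2-D1, so their counts are uncertain too. The shared part was not measured for the genes of this list. H2-M2 had no count in either genotype on days 0 and 7.

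Of 15 transcription regulators of class I genes, 11 were lower and 1 higher on day 7 in Krt8+/+ cells, and 9 and 1 in Krt8–/– cells (medians −0.56 and −0.71), against 30.2% and 29.9% lower and 28.6% higher over all tested genes. Irf1, an interferon-induced activator of class I promoters, went from 87, 82.8 and 62.8 CPM to 31.6, 24.9 and 20.9 CPM in Krt8+/+ cells, a log2 change of −1.59 (edgeR adjusted p = 1.63e-06), and changed by −1.49 in Krt8–/– cells. Every day 7 library of Irf1 lay below its day 0 libraries. Stat2 and Irf9, which act in type I interferon signalling, changed by −2.04 and −1.93 in Krt8+/+ cells and by −1.79 and −1.76 in Krt8–/– cells, and Irf2 by −1.78 and −1.85. Rfx5, a subunit of the RFX complex on MHC promoters, changed by −1.20 (called) in Krt8+/+ and by −0.42 (adjusted p = 0.0737) in Krt8–/– cells. The difference of these changes was 0.77 (SE 0.28, adjusted p = 1).

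The interferon ligands Ifng and Ifnb1 had no count on day 0 or day 7, and other interferon genes were not examined. Of 10 tested among 12 interferon ligands, receptors and kinases, 1 was higher and 4 lower in Krt8+/+ cells and 2 and 4 in Krt8–/– cells, with medians of 0.07 and 0.22. The background shares were 28.6% higher in both genotypes and 30.2% and 29.9% lower. The receptor chain Ifngr2 rose by 1.46 and 1.36, while Il10rb fell by 0.94 and 0.85, Ifnar2 by 0.68 and 0.78 and the kinase Jak2 by 0.81 and 0.50 on the log2 scale. Jak2 in Krt8–/– cells was not called without isolation 1 (−0.36), isolation 2 (−0.44) or isolation 3 (−0.60), nor with no filter on low counts (edgeR adjusted p = 0.0689).

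Of 20 interferon-inducible genes tested among 21, 6 were higher and 9 lower in Krt8+/+ cells on day 7 and 5 and 8 in Krt8–/– cells, with medians of −1.39 and −1.11. Over all tested genes 28.6% were higher in both genotypes, and 30.2% and 29.9% lower, so the counts of higher genes were near that background. Iigp1, an interferon-γ-induced GTPase, went from 106 counts over the Krt8+/+ libraries of day 0 to 0 on day 7, at least 43.5-fold lower, and from 131 to 0 in Krt8–/– cells, at least 54.7-fold lower (floor of 3 counts over the group). Another GTPase of this family, Tgtp1, changed by −3.72 and −3.88 on the log2 scale (−3.09 in Krt8+/+ cells without isolation 2 and −3.29 in Krt8–/– cells without isolation 1). The chemokine gene Cxcl10 went from 2 to 72 counts and from 2 to 102 counts, ratios of 29.2 (95% interval 7.81 to 246) and 40.7 (11 to 341). Its fitted change moved from 4.76 to 7.45 in Krt8+/+ cells without isolation 1, and from 5.25 to 3.78 in Krt8–/– cells without isolation 2. Mx1, an antiviral GTPase, went from 1 to 14 counts in Krt8+/+ cells, a ratio of 11.4 (1.73 to 481), and its call was lost without isolation 2 (edgeR adjusted p = 0.262) and isolation 3 (0.0622). Intervals and floors cover counting error only.

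MHC class II genes fell in both genotypes. Of 8 class II genes 7 were tested, and all 7 were lower on day 7 in each (30.2% and 29.9% of all tested genes were), with medians of −5.19 and −5.31. Cd74, the invariant chain, went from 4116, 5190 and 5763 CPM to 110, 118 and 155 CPM in Krt8+/+ cells, a log2 change of −5.30 (edgeR adjusted p = 3.86e-08), and changed by −5.35 in Krt8–/– cells. H2-Aa changed by −9.55 and −9.48 and H2-Ab1 by −5.19 and −5.31. The class II transactivator gene Ciita changed by −7.77 in Krt8+/+ cells (−7.07 without isolation 1 and −11.56 without isolation 3) and went from 1007 counts to 0 in Krt8–/– cells, at least 421-fold lower. The class I and class II lists were not tested against each other.

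Markers of cell state moved over the same days, and their part in the class I results was not tested. The counts below stand beside 28.6% higher in both genotypes and 30.2% and 29.9% lower over all tested genes. All 9 AEC2 markers were lower on day 7 in both genotypes, with medians of −11.38 and −11.13. Of 8 AEC1 markers, 6 were higher and 1 lower in Krt8+/+ cells and 6 and 2 in Krt8–/– cells (medians 2.47 and 1.96). Their sum, led by Ager, was lower on day 7 than on day 0 in every isolation: it went from 2400, 2860 and 3000 CPM to 1550, 1940 and 2780 CPM in Krt8+/+ and from 3390, 3210 and 3550 CPM to 1620, 2260 and 1970 CPM in Krt8–/– cells. Of 7 markers of the transitional state between AEC2 and AEC1, Krt8 among them, 7 and 6 were higher (medians 4.27 and 4.16). Club and ciliated markers fell, 4 of 4 in each genotype (medians −7.42 and −8.51). Their sum was 4490, 10100 and 5290 CPM in Krt8+/+ and 12300, 12200 and 17400 CPM in Krt8–/– cells on day 0, led by Scgb1a1, and at most 35.9 CPM on day 7, with Scgb3a2 at 0.

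Leukocytes express class I genes and the inducible proteasome subunits too, so their markers are given beside these results. The sum of 5 leukocyte markers, led by Laptm5, went from 38.1, 14.2 and 1.11 CPM on day 0 to 122, 44.5 and 7.62 CPM on day 7 in Krt8+/+ cells, and from 33, 11.6 and 0.541 CPM to 51.4, 20.2 and 7.4 CPM in Krt8–/– cells. This sum was higher on day 7 than on day 0 in all 3 isolations of both genotypes, and isolation 1 held most of it. Of the 5 markers 1 was called higher in Krt8+/+ cells (median 1.95). The smallest edgeR adjusted p of the 5 in Krt8–/– cells was 0.32 (median 0.33). The sum of 10 macrophage markers, led by Csf1r and on day 7 by Cd68, went from 45.5, 28.2 and 14.3 CPM to 164, 49.9 and 7.22 CPM and from 30.9, 23.7 and 7.49 CPM to 78.6, 24.6 and 6.51 CPM. edgeR called 1 of 10 higher in Krt8+/+ cells (median 1.77), and in Krt8–/– cells the smallest adjusted p was 0.0633 (median 0.68).

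Lymphocyte markers were scarce. The sum of 8 of them went from 7.63, 4.66 and 0.664 CPM to 4.56, 0.746 and 0.0663 CPM in Krt8+/+ cells and from 14.9, 2.63 and 1.55 CPM to 2, 1.09 and 0.128 CPM in Krt8–/– cells, with Cd3e and Cd3d at 0 on day 7 in both. Of 5 tested, 3 and 2 were lower (medians −6.01 and −3.73, the former −3.36 with genes without counts set at their bound). Neutrophil markers summed to at most 4.9 CPM in any library of day 0, and 1 of 2 tested was lower in each genotype (medians −3.29 and −2.68, at the bound −1.86 and −1.22). Endothelial markers, led by Kdr, averaged 19.9 and 25.2 CPM on day 0 and 1.84 and 2.62 CPM on day 7, and 3 of 3 tested were lower (medians −3.72 and −3.44). Fibroblast markers, led by Col3a1 and on day 7 by Col1a2, went from 985, 504 and 295 CPM to 897, 1000 and 1910 CPM and from 725, 564 and 331 CPM to 955, 834 and 3180 CPM. Of these 7 markers 3 were higher and 3 lower in Krt8+/+ cells and 3 and 2 in Krt8–/– cells (medians 0.56 and 0.93). The part of these cells in the class I results was not tested.

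Within the set, genes differed in how closely they followed the rest. Over the 8 group means, Pearson's r between a gene's log2 CPM and the mean of the other 9 was 0.974 for Psmb9 and for Psmb10, 0.971 for H2-D1, 0.964 for Psmb8, 0.949 for Tap2, 0.945 for H2-K1 and 0.898 for Tap1. It was 0.512 for Tapbp, 0.481 for Nlrc5 and 0.355 for B2m. Genes outside the set were ranked by r with the mean of all 10, among 11484 tested genes with at least 10 CPM in a group. Their r values are therefore not directly comparable with those of the 10 genes. The closest were Rab20 (r = 0.998), 2610528J11Rik (0.996), H2afv (0.996), Dgka (0.995) and Rnf5 (0.995). Rab20, for example, averaged 25, 11.3, 8.17 and 8.32 CPM on days 0, 1, 3 and 7 in Krt8+/+ cells and changed by −1.58 on the log2 scale from day 0 to day 7, and by −1.89 in Krt8–/– cells. Rnf5 lies on chromosome 17 at chr17:34601091-34603690, between H2-K1 and H2-D1 by position. These r values describe 8 means that share libraries and carry no p.

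Position and promoter sequence are shared features that the choice of genes did not use. H2-K1, H2-D1, Tap1, Tap2, Tapbp, Psmb8 and Psmb9 lie on chromosome 17, and Psmb9, Tap1, Psmb8 and Tap2 follow each other between 34181987 and 34216321. Promoters from RefSeq (GRCm38.p6, 250 bases before to 50 after the start) were matched for 8 of the 10 genes, with 2 entries for H2-K1. No entry was matched for Tap2 and Nlrc5. Motifs were searched on both strands, and a match is a description of letters only. The kappa B motif GGGNNTTNC was found in B2m, H2-K1 and H2-D1 (15.2% of all 32851 promoters), the interferon regulatory factor element GAAANNGAA in B2m (8.56%), and the site alpha motif TGACGC in H2-K1 and H2-D1 (7.4%). CCAAT was found in B2m, Tapbp, H2-K1, Psmb9, Tap1 and H2-D1 (37.4%). A further spacing of the interferon element, GAANNGAAA, was searched after the sequences were seen and was found in H2-K1 and H2-D1 (7.52%). Psmb8 and Psmb10 held none of these letters in the window.

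The bases before the RefSeq starts of H2-K1, H2-D1 and B2m are printed because both heavy chains fell over culture while B2m on day 7 did not differ by call from day 0. Capitals mark matches to the motifs GGGNNTTNC, GAAANNGAA, GAANNGAAA, TGACGC and CCAAT on either strand, and each sequence runs 5′ to 3′ on the strand of the gene. H2-K1 is chr17:34000334-34000583 on the minus strand, H2-D1 chr17:35262844-35263093 on the plus strand, and B2m chr2:122147437-122147686 on the plus strand, all of GRCm38.p6. In the annotation used for lengths, the H2-D1 stretch lies wholly within the gene, which begins at 35262730, and the H2-K1 stretch overlaps the gene, which ends at 34000347. The H2-K1 sequence is from 1 of its 2 entries, and no printed matches overlap.
H2-K1: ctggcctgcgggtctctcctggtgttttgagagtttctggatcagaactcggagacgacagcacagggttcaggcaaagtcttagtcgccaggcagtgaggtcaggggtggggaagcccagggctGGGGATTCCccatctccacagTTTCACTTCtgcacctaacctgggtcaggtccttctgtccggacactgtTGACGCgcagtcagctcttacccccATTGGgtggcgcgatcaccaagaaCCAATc
H2-D1: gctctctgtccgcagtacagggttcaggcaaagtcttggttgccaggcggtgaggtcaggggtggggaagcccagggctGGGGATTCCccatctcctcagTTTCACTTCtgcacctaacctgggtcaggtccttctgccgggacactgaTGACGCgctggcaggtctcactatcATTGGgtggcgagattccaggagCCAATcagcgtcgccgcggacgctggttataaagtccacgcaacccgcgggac
B2m: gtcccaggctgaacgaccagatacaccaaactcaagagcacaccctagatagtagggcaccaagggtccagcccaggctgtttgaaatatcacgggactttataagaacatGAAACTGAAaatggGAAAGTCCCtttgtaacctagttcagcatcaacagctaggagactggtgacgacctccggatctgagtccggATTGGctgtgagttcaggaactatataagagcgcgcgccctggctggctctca
In H2-K1 and H2-D1 the matches stand in the same order and nearly the same spacing. Counted from the first base of the kappa B match, GAANNGAAA begins after 21 bases, TGACGC after 70 and the first CCAAT after 95 in both genes. The second CCAAT begins after 119 bases in H2-K1 and 118 in H2-D1. Aligned with free ends, 177 of 204 columns are identical (86.8%). The kappa B match begins 125 bases before the RefSeq start in H2-K1 and 171 bases before it in H2-D1.

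Psmb9 and Tap1 are transcribed in opposite directions from RefSeq starts with 225 bases between them. In the annotation used here for lengths and overlaps Psmb9 reaches 34187764, past the Tap1 start at 34187553, so these bases lie within annotated Psmb9. They are shown because Psmb9 fell to 0.0782 and Tap1 to 0.613 of the day 0 level by day 7 in Krt8+/+ cells. The sequence is chr17:34187331-34187555 of GRCm38.p6 on the plus strand, the strand of Tap1, from RefSeq, with a match to CCAAT in capitals.
Psmb9 to Tap1: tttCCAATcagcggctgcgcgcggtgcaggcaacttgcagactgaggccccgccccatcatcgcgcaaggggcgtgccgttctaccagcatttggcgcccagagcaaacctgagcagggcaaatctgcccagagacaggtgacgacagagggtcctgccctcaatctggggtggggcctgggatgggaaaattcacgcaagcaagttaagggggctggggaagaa
The Krt8+/+ change of Tap1, −0.71 on the log2 scale, was −1.05, −0.32 and −0.69 without isolation 1, 2 and 3, and was called without isolation 1 alone of these.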

How the data were processed

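RNA-seq counts of AEC2s from Krt8+/+ and Krt8–/– mice on days 0, 1, 3 and 7 were used. Per the submitters' processing notes, reads were trimmed with cutadapt 2.3 and handled with STAR 2.7.8a and RSEM 1.3.3 on GRCm38. The deposited values are raw counts per Ensembl gene, all whole numbers, and which program made them is not stated. Of 55426 entries, 5 stand for reporters with 0 counts. Symbols of GENCODE's GRCm38 annotation matched 55154 identifiers and left 267. The members and all lists were chosen with earlier results of these data known.

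In R 4.3.3 with edgeR 4.0.16 and limma 3.58.1, filterByExpr (min.count 10, min.total.count 15) left 18046 genes, and all 10 members passed. A quasi-likelihood model of 8 group means with TMM scaling (16 residual degrees of freedom) was tested with Benjamini-Hochberg adjustment and a threshold of 0.05. Log2 CPM for likeness used a prior count of 2. Folds against a group with 0 counts used a floor of 3 counts over the group, and subunit ratios were compared by exact permutation. The procedure was tested on simulated data with 200 genes changed in a single group. That setting does not check scaling where most genes change, and 58.8% of tested genes were called on day 7 against day 0 in Krt8+/+ cells. The alternatives were DESeq2 1.42.0 size factors, the DESeq2 test, no low-count filter, the replicate block, each isolation left out, and the libraries of the compared groups alone. Leaving out the day 1 libraries of isolation 2 was added after the data were seen.

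Deviations from group means correlated between same-numbered libraries of the genotypes (r 0.057 to 0.548 in 12 pairs), against −0.481 to 0.242 in 24 differently numbered pairs. Between days, 24 same-numbered pairs gave −0.035 to 0.383 and 48 others −0.347 to 0.094. The genes named are the 10 members, up to 4 per list past the threshold with the largest change in Krt8+/+ day 7 against day 0, genes with a defined partner role (among them Psmb5, Psmb6, Psmb7, Psme1, Psme2, Irf1, Rfx5 and Ciita) and the 5 genes most alike. Marker lists name the most abundant gene and those without counts.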

Additional observations from a re-analysis of the deposited data

Results flagged for a closer look

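The change of Krt8 since day 0 differed between genotypes, in a test of the difference itself by edgeR. The log2 difference between Krt8–/– and Krt8+/+ cells was −2.25 for day 1 (adjusted p = 0.00719), −2.61 for day 3 (adjusted p = 0.000758) and −2.91 for day 7 (adjusted p = 0.000132). The direction of the Krt8 difference held with each isolation left out, but most calls did not. Without isolation 1, 2 and 3 it was −2.21, −2.02 and −2.50 for day 1 (adjusted p = 1, 1 and 0.275) and −2.51, −2.45 and −2.85 for day 3 (adjusted p = 0.535, 0.184 and 0.0746). For day 7 Krt8 was lost without isolation 1 (−2.67, adjusted p = 0.297) and stayed called without isolation 2 (−2.82, adjusted p = 0.0451) and isolation 3 (−3.21, adjusted p = 0.0219). The day 1 call of Krt8 was also lost in a fit of the libraries compared alone (−2.26, adjusted p = 0.143) and without the day 1 libraries of isolation 2 (−2.02, adjusted p = 0.0794). Krt8 is the deleted gene. Not one of the 10 class I genes met this condition, as the report gives with their counts.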

How the results depend on the processing

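For single genes, the tally covers results called with all libraries and the 10 genes on day 7 against day 0: 961 of 1048 alternative values kept direction and side of the threshold, 82 missed the threshold, 2 newly passed it and 3 changed sign. Outside the tally, newly called in Krt8–/– cells were Tap2 (under 3 alternatives) and Tapbp (without isolation 2) for day 7 against day 3, and H2-D1 for day 3 against day 1 (without the day 1 libraries of isolation 2). Counts of called class I genes stayed within 1.5 times in 110 of 126 alternatives. The subunit ratios kept direction with each isolation left out, though 3 libraries against 3 cannot give an exact p under 0.1. Psmb8, Psmb9, Psmb10, H2-K1, H2-D1 and Tap2 stayed called on day 7 against day 0 in both genotypes under every alternative run. With no low-count filter, the counts for day 7 against day 3 were 0 in Krt8+/+ (edgeR; 3 at an unadjusted p under 0.05, and 2 by DESeq2) and 2 in Krt8–/– cells. Of all genes tested by edgeR without that filter, 3.4% and 5.44% were called. With the libraries of the compared groups alone, Krt8+/+ counts were 5 for day 1 against day 0, 0 for day 3 against day 1 (2 at an unadjusted p under 0.05, and 3 by DESeq2 on all libraries) and 0 for day 7 against day 3 (3 and 2). Of all genes tested in these fits, 48.2%, 17.8% and 7.85% were called, in that order. Leaving out an isolation gave Krt8+/+ counts from 3 to 7 (day 1 against day 0), from 0 to 2 (day 3 against day 1) and from 0 to 0 (day 7 against day 3), and Krt8–/– counts from 0 to 1 (day 3 against day 1) and from 1 to 2 (day 7 against day 3). The shares of all tested genes called then ranged from 39.2% to 45.4%, 14.1% to 17.1% and 1.75% to 3.17% in Krt8+/+ cells. In Krt8–/– cells they ranged from 10.2% to 14.5% and from 4.64% to 5.23%. Fewer libraries were fitted with an isolation left out or the compared groups alone, and the cause was not tested. B2m on day 7 against day 0 in Krt8+/+ cells changed sign with no low-count filter (0.018) and ranged from −0.18 to 0.20 with an isolation left out, 0.01 without isolation 3. In the paired fit with a replicate block, 7 and 8 genes were called on day 7 against day 0, and Tap2 was added for day 7 against day 3 in Krt8–/– cells. That fit called 61.3% and 60.7% of all tested genes on day 7 against day 0. DESeq2 size factors moved the median of all genes by less than 0.1. Depth limits Nlrc5, with 7 counts in the Krt8–/– libraries of day 7, and Psmb9, with 48 there.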

Other observations

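The balance of light to heavy chain was looked at after the values were seen. Per kilobase of exon, B2m was 43.4%, 64.4%, 84% and 113% of H2-D1 on days 0, 1, 3 and 7 in Krt8+/+ cells (geometric means, n = 3). In Krt8–/– cells it was 43.5%, 57%, 69.3% and 111%. These levels depended on the lengths used. In CPM not divided by length, B2m was 14.5% and 37.6% of H2-D1 on days 0 and 7 in Krt8+/+ cells. The Krt8–/– values were then 14.5% and 37%. The log2 ratio of B2m to H2-D1 was higher on day 7 than on day 0 by 1.38 and 1.35, with no overlap between days (exact two-sided permutation p = 0.1, the smallest possible). Per kilobase of exon, B2m was 206% of H2-K1 on day 0 and 508% on day 7 in Krt8+/+ cells, and 204% and 481% in Krt8–/– cells. Not divided by length, it was 60.2% and 149% in Krt8+/+ cells, and 59.7% and 141% in Krt8–/– cells. The genotypes overlapped in these ratios except for B2m over H2-K1 on day 3, where Krt8–/– cells differed by −0.34 (exact two-sided permutation p = 0.1).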
